A study of Saccharomyces cerevisiae with 12 samples.

Results

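The transcripts described here encode the enzymes and transporters that carry ammonium into budding yeast and fix it in glutamate and glutamine. They comprise 8 of the 5917 coding sequences counted in each library, chosen by gene name: the glutamate dehydrogenases *GDH1* (YOR375C), *GDH2* (YDL215C) and *GDH3* (YAL062W), glutamine synthetase *GLN1* (YPR035W), glutamate synthase *GLT1* (YDL171C), and the ammonium permeases *MEP1* (YGR121C), *MEP2* (YNL142W) and *MEP3* (YPR138C). RNA-seq libraries were made from BY4741, a haploid laboratory strain (WT), and from *mrn1Δ*, the same strain with a kanamycin-resistance cassette in place of *MRN1*, which encodes an RNA-binding protein. The *mrn1Δ* and WT respiratory groups were grown in rich glucose medium and then held for 20 minutes in medium whose carbon sources were ethanol and glycerol. Respiratory growth below means these cultures 20 minutes after the transfer to that medium, not resumed or steady growth in it. The paper does not name the nitrogen source of that medium. For its growth curves it describes a wash in sterile water before this step. The *mrn1Δ* and WT fermentative groups were harvested from log-phase growth in rich glucose medium. Each of the 4 groups holds 3 libraries from triplicate cultures, so p-values measure the spread between these cultures. For these libraries the paper describes no further *mrn1Δ* isolate. A difference between genotypes therefore cannot be told apart from any other difference between the strains. No drug or other agent was added to any group.

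Yeast makes glutamate from ammonium and 2-oxoglutarate with the NADP-dependent dehydrogenases Gdh1 and Gdh3, and returns ammonium and 2-oxoglutarate with the NAD-dependent enzyme Gdh2. Gln1 adds a second nitrogen to form glutamine, and Glt1 uses glutamine to form glutamate. The Mep permeases import ammonium, and Mep2 is also known as the ammonium sensor of pseudohyphal growth. Several of their genes are textbook targets of nitrogen catabolite repression, in which GATA factors such as Gln3 and Gat1 bind GATAAG, and *GDH1* is in addition a target of Leu3, the activator of branched-chain amino acid genes, which binds the everted repeat CCGNNNNCGG.

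The Leu3-type repeat was searched for in the 500 bases before each start codon, since *GDH1* was the one gene of the 8 that differed between genotypes in both media. Matches were counted on both strands in the R64 genome, whose RefSeq sequence was used, and the windows were not trimmed at neighbouring genes. At least 1 match was present before 3.3% of 5909 genes. Of the 8 genes, 1 had a match, *GDH1*, and of 6 other Leu3 targets, *LEU1*, *OAC1*, *BAT1*, *ILV2*, *ILV5* and *LEU4*, 5 had one, all but *LEU4*. The 6 were listed as known targets of Leu3, with earlier results of these data known. Their matches are therefore a description and not a test. The stretches of 30 bases below are given 5′ to 3′ on the strand of each gene, with the repeat in capitals. They lie at chrXV:1043427-1043456 (minus strand) for *GDH1*, chrVII:478850-478879 (minus) for *LEU1*, chrVIII:517375-517404 (plus) for *BAT1*, chrXII:839611-839640 (minus) for *ILV5* and chrXI:216850-216879 (plus) for *OAC1*.
GDH1: aaccaatgcgCCGGAACCGGcccatgcatt
LEU1: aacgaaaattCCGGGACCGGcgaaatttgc
BAT1: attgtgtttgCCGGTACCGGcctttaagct
ILV5: gcggtctcctCCGGTACCGGttctgccacc
OAC1: ccgaaagatgCCGGAAACGGtcttaggccg

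The GATA sequence GATAAG was present before 22.6% of the 5909 genes, with 2 or more matches before 3.7%. Of the 8 genes, 6 had a match. *MEP2* had 7 matches, *MEP3* had 5, *GDH3* had 3, and *GDH1*, *GLT1* and *MEP1* had 2 each, while *GDH2* and *GLN1* had 0 in this window. Matches that share a base were counted apart. Stretches before *MEP2* (chrXIV:356985-357014 and chrXIV:357113-357142, plus strand), *MEP3* (chrXVI:812912-812941, minus) and *GDH3* (chrI:31295-31324, plus) are shown because these genes had the most matches. The capitals mark 1 match, and CTTATC is GATAAG read on the other strand. A match is a description of the sequence and does not show that a factor binds there.
MEP2, first stretch: taagataagaaaGATAAGataagacatctt
MEP2, second stretch: tagtcaaagccaGATAAGataagaaatgta
MEP3: cggcgccaaatcCTTATCtctcgtagctgg
GDH3: acttatcttatcGATAAGcagtattgatat

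Library totals ranged from 16231559 to 26542199 estimated counts, and all 8 genes passed the filter on low counts in every comparison. Levels are given as CPM, the counts of a gene relative to its library total, scaled by TMM factors over the 12 libraries, and a count of 3 corresponds to 0.113 to 0.185 CPM, which allows for counting error alone. The deleted gene had 0.0968 to 0.651 CPM in the *mrn1Δ* libraries, against 83.7 to 139 CPM in the WT libraries, so the genotype labels held in all 12. None of the 8 genes overlapped another annotated gene. No coding sequence of the 8 shared a stretch of 50 bases with another, although *GDH1* and *GDH3* are 76.2% identical and *MEP1* and *MEP3* 69.6% identical in nucleotides. The estimated counts of *GDH1* and *GDH3* were not whole in 3 libraries each, which marks a few reads divided between them, and those of the other 6 genes were whole in every library.

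**Figure D1:**
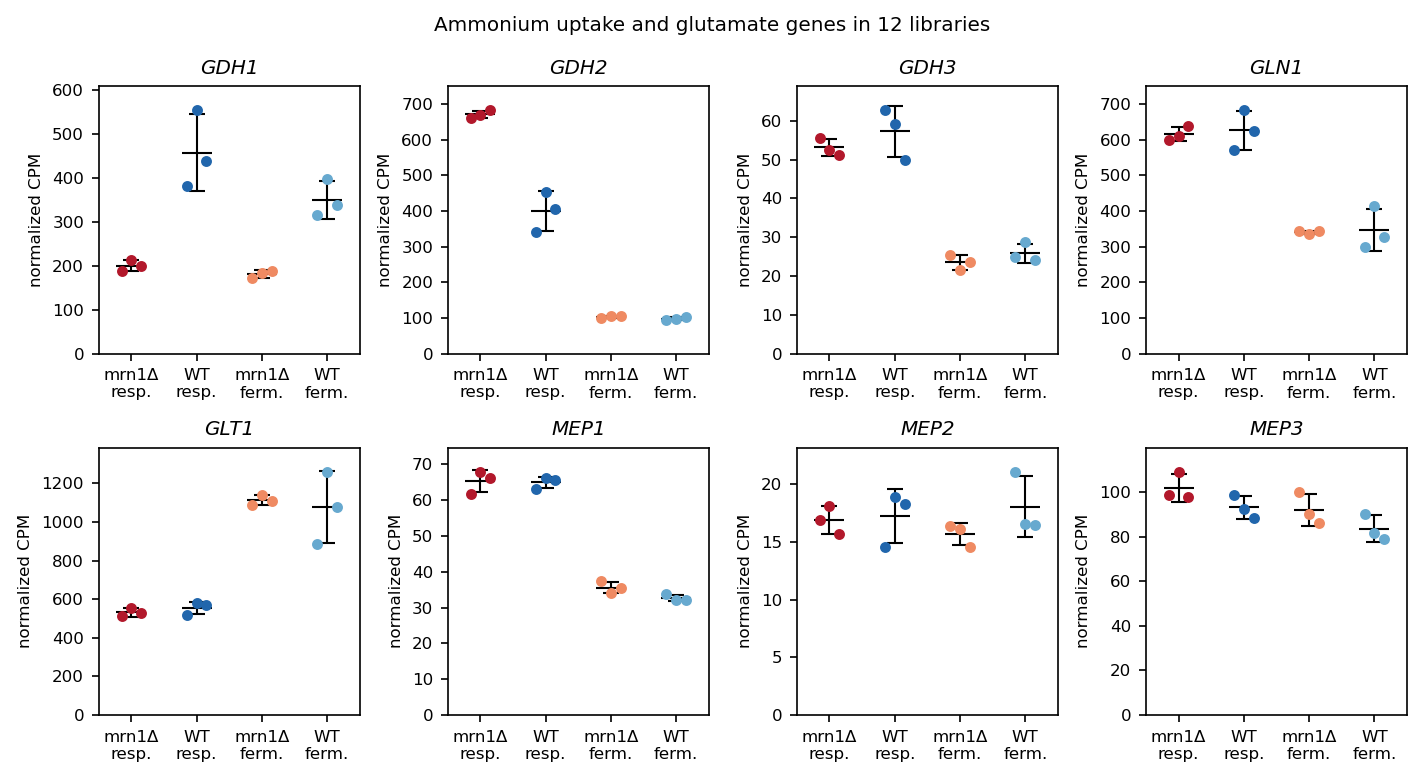
Levels of the 8 transcripts in each library, in TMM-normalized CPM on linear axes that start at 0, for *mrn1Δ* respiratory, WT respiratory, *mrn1Δ* fermentative and WT fermentative cultures. Each point is 1 library, and the bars show the mean and SD of 3. *GDH1* is lower in *mrn1Δ* in both media, with 171 to 212 CPM in the 6 *mrn1Δ* libraries against 314 to 553 CPM in the 6 WT libraries, and *GDH2* is highest in the *mrn1Δ* respiratory libraries.

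The first comparison asked how the transcripts differed between *mrn1Δ* and WT during fermentative growth. Of the 8 genes, 0 were higher and 1, *GDH1*, was lower in *mrn1Δ*, beside 0.588% of all 5785 genes tested called higher and 0.328% called lower. At an unadjusted p under 0.05 and with DESeq2 these counts were again 0 and 1. Over all 5785 genes, 878 passed the unadjusted threshold in either direction by edgeR, and DESeq2 called 151 higher and 54 lower. *GDH1*, the main NADP-dependent glutamate dehydrogenase of growth on glucose (chrXV:1041678-1043042, minus strand), had 171, 182 and 188 CPM in the *mrn1Δ* libraries, against 314, 396 and 337 CPM in the WT libraries. The groups did not overlap, and the *mrn1Δ* libraries lay close together. Its level was 1.93-fold lower, a log2 fold change of -0.95 ± 0.09 (SE, n = 3 each), with a p of 0.0013 in edgeR's quasi-likelihood test, adjusted by Benjamini-Hochberg over all genes, and it ranked 10 of 5785 genes by p. A culture with less of the transcript in every cell and one with fewer cells that carry it cannot be told apart in bulk RNA.

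The remaining glutamate and glutamine genes differed by less than the test could call in fermentative growth. *GDH2* (chrIV:70640-73918, minus strand) had 99.9, 105 and 104 CPM in *mrn1Δ*, against 94.2, 97.9 and 102 CPM in WT, and the groups overlapped. *GDH3*, the second NADP-dependent isozyme (chrI:31567-32940, plus strand), had 25.4, 21.6 and 23.5 CPM in *mrn1Δ*, against 24.9, 28.7 and 24 CPM in WT. The close sequence of *GDH3* to *GDH1* did not extend to its level, since its log2 fold change was -0.13 with a 95% interval of -0.36 to 0.09. *GLN1* (chrXVI:642208-643320, plus strand) had a log2 fold change of -0.02 (interval -0.26 to 0.23) and *GLT1* (chrIV:149203-155640, minus strand) one of 0.05 (interval -0.21 to 0.31). The permeases had log2 fold changes of 0.13 for *MEP1* (interval -0.04 to 0.30), -0.20 for *MEP2* (interval -0.48 to 0.08) and 0.15 for *MEP3* (interval -0.06 to 0.35). The 3 libraries of each genotype did not overlap for *MEP1* and *MEP2*, and their adjusted p-values were 0.43 and 0.45 (edgeR quasi-likelihood test). The share of all genes without overlap was not counted, so this separation is not read as a difference.

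After 20 minutes in ethanol and glycerol, 1 of the 8 genes was higher in *mrn1Δ*, *GDH2*, and 1 was lower, *GDH1*, beside 6.79% and 7.83% of 5800 genes tested. With upper-quartile in place of TMM scaling the higher calls were 31.1% of all calls, against 46.5% with TMM, and both genes kept their calls. *GDH1* had 188, 212 and 200 CPM in the *mrn1Δ* respiratory libraries, against 381, 553 and 437 CPM in the WT respiratory libraries. The lowest WT library was well above the highest *mrn1Δ* library. Its level was 2.28-fold lower (log2 fold change -1.19 ± 0.13, n = 3 each, adjusted p = 0.0013, edgeR quasi-likelihood test).

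*GDH2*, the NAD-dependent enzyme that degrades glutamate and is known as a glucose-repressed gene, moved the other way. It had 662, 670 and 683 CPM in the *mrn1Δ* respiratory libraries, against 340, 454 and 406 CPM in the WT respiratory libraries. The 3 *mrn1Δ* libraries were nearly equal and all were above WT. The level was 1.68-fold higher (log2 fold change 0.75 ± 0.10, n = 3 each, adjusted p = 0.0012, edgeR quasi-likelihood test). In fermentative growth the same gene had a log2 fold change of 0.08 with an adjusted p of 0.57.

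No difference was called for the other 6 genes after the shift. Their log2 fold changes lay between -0.11 for *GDH3* and 0.13 for *MEP3*, and the widest interval, that of *MEP2*, ran from -0.27 to 0.22. *MEP3*, a low-affinity permease (chrXVI:810984-812453, minus strand), had 98.6, 109 and 97.6 CPM in *mrn1Δ*, against 98.6, 92.4 and 88.1 CPM in WT, with an adjusted p of 0.20 in the edgeR quasi-likelihood test.

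**Figure D2:**
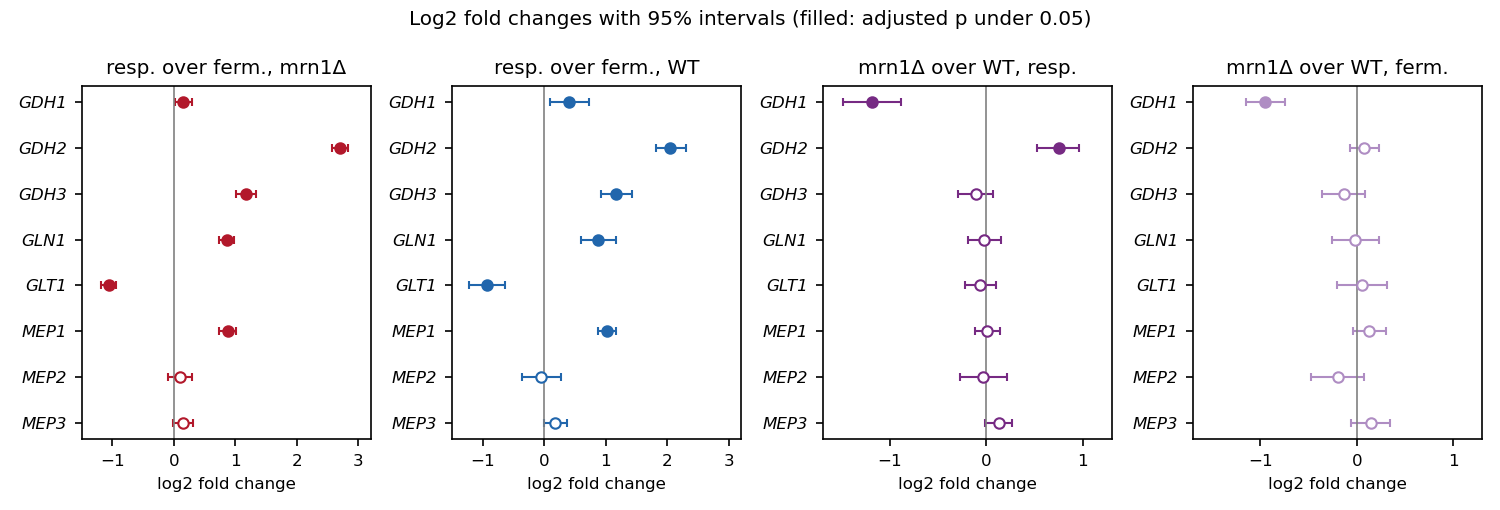
Log2 fold changes of the 8 transcripts with 95% intervals from the edgeR fits: the shift in *mrn1Δ*, the shift in WT, *mrn1Δ* over WT in respiratory cultures, and *mrn1Δ* over WT in fermentative cultures. Filled points have an adjusted p under 0.05 and open points do not. The shift is called upward for *GDH1*, *GDH2*, *GDH3*, *GLN1* and *MEP1* and downward for *GLT1* in both genotypes. The called change is smallest for *GDH1*. The genotype comparisons differ from 0 for *GDH1* in both media and for *GDH2* in respiratory cultures.

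The shift itself was compared within each genotype. In *mrn1Δ*, 5 of the 8 genes were higher after the shift and 1 was lower, beside 43.2% and 40.3% of 5793 genes tested. In WT, 5 were higher and 1 was lower, beside 38.6% and 36.4% of 5801 genes tested. A large share of the transcriptome was thus called in both directions, and the counts for the 8 genes are to be read against these shares. The genes were *GDH1*, *GDH2*, *GDH3*, *GLN1* and *MEP1* upward and *GLT1* downward in both genotypes. The median log2 fold change of the 8 was 0.51 in *mrn1Δ*, where that of all genes was 0.05, and 0.65 in WT, where that of all genes was 0.03.

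*GDH2* had the largest change of the 8. It had 662, 670 and 683 CPM in respiratory *mrn1Δ* cultures, against 99.9, 105 and 104 CPM in fermentative *mrn1Δ* cultures, a 6.53-fold higher level (log2 fold change 2.71 ± 0.06, adjusted p = 6.4e-11 by edgeR's quasi-likelihood test). In WT it had 340, 454 and 406 CPM after the shift, against 94.2, 97.9 and 102 CPM in glucose, a 4.15-fold higher level (log2 fold change 2.05 ± 0.11, adjusted p = 2.7e-07, edgeR). The rise was tested for a difference between genotypes on all 12 libraries. Of the 8 genes, 1, *GDH2*, had a larger shift in *mrn1Δ* and 0 a smaller one, beside 1.12% and 2.11% of 5828 genes tested. The difference in log2 fold change, *mrn1Δ* minus WT, was 0.67 ± 0.13 with an adjusted p of 0.011 in the edgeR quasi-likelihood test.

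*GDH3*, a gene known to be induced on ethanol, was higher after the shift by like amounts in both strains. It had 55.6, 52.5 and 51.3 CPM in respiratory *mrn1Δ* cultures, against 25.4, 21.6 and 23.5 CPM in fermentative ones, 2.26-fold higher. In WT it had 62.7, 59.3 and 49.9 CPM, against 24.9, 28.7 and 24 CPM, 2.25-fold higher. The difference between the shifts was 0.03 on the log2 scale, with an interval of -0.26 to 0.32.

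The route through glutamine changed in both directions. *GLN1*, which forms glutamine, had 600, 610 and 640 CPM in respiratory *mrn1Δ* cultures, against 343, 336 and 344 CPM in fermentative ones (log2 fold change 0.86 ± 0.06, adjusted p = 1.5e-07, edgeR). In WT the values were 571, 683 and 625 CPM after the shift, against 300, 413 and 326 CPM before it (log2 fold change 0.88 ± 0.13, adjusted p = 0.00016, edgeR). *GLT1*, which consumes glutamine, was lower after the shift in each strain, and no respiratory library reached a fermentative one. It had 512, 557 and 527 CPM in respiratory *mrn1Δ* cultures, against 1090, 1140 and 1110 CPM in fermentative ones, 2.09-fold lower. In WT it had 517, 578 and 568 CPM, against 888, 1260 and 1080 CPM, 1.91-fold lower. Adjusted p-values for *GLT1* were 3.7e-08 in *mrn1Δ* and 0.00012 in WT (edgeR quasi-likelihood test).

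Among the permeases, *MEP1* alone was called after the shift. *MEP1* (chrVII:731449-732927, minus strand) had 61.8, 67.9 and 66.2 CPM in respiratory *mrn1Δ* cultures, against 37.3, 34.1 and 35.4 CPM in fermentative ones. In WT it had 63.2, 66.2 and 65.5 CPM, against 33.7, 32.2 and 32 CPM. These are 1.83-fold and 2.02-fold higher levels, with adjusted p-values of 3.7e-07 and 8.8e-07 (edgeR). *MEP2*, the high-affinity permease with the most GATAAG matches (chrXIV:357453-358952, plus strand), had 16.9, 18.1 and 15.7 CPM in respiratory *mrn1Δ* cultures, against 16.4, 16.1 and 14.6 CPM in fermentative ones. In WT it had 14.6, 18.9 and 18.3 CPM, against 21.1, 16.6 and 16.5 CPM. Its groups overlapped in both strains, and the log2 fold changes of 0.10 in *mrn1Δ* and -0.05 in WT had intervals of -0.10 to 0.30 and -0.36 to 0.27. *MEP3* had log2 fold changes of 0.15 ± 0.07 in *mrn1Δ* and 0.18 ± 0.08 in WT, with adjusted p-values of 0.087 and 0.075. When replicate number entered the fit as a block, these became 0.045 and 0.038 at the same fold changes (edgeR), so the call on *MEP3* depends on the pairing of cultures.

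*GDH1* had smaller log2 fold changes after the shift than between genotypes. Its log2 fold change after the shift was 0.15 ± 0.06 in *mrn1Δ* (adjusted p = 0.036, edgeR) and 0.41 ± 0.14 in WT (adjusted p = 0.024, edgeR), and the respiratory and fermentative libraries overlapped in both strains. The WT call was lost without WT fermentative replicate 1 (adjusted p = 0.10), WT fermentative replicate 3 (0.098) or WT respiratory replicate 2 (0.082). The *mrn1Δ* call was lost without fermentative replicate 1 (0.13) or 2 (0.088), or respiratory replicate 2 (0.14) or 3 (0.090), all by edgeR. With a block for replicate number both calls held, with adjusted p-values of 0.010 in *mrn1Δ* and 0.0019 in WT (edgeR). The difference between the shifts was -0.24 ± 0.17, with an adjusted p of 0.46 (edgeR). The difference in *GDH1* between genotypes was thus not shown to depend on the medium.

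Per length, the order of the transcripts changed with both genotype and medium. Levels between genes are compared in the deposited TPM, which also corrects for transcript length. In *mrn1Δ* respiratory cultures *GLN1* stood at 737 ± 20, *GDH2* at 264 ± 3.6, *GDH1* at 194 ± 13, *GLT1* at 106 ± 5.5, *MEP3* at 91.2 ± 7.0, *MEP1* at 58.1 ± 3.2, *GDH3* at 51.0 ± 2.4 and *MEP2* at 14.8 ± 1.3 TPM (SD, n = 3). *GDH2* was thus above *GDH1* there, and no neighbours in the order overlapped. In WT respiratory cultures *GLN1* stood at 728 ± 66, *GDH1* at 429 ± 78, *GDH2* at 153 ± 22, *GLT1* at 108 ± 8.0, *MEP3* at 81.0 ± 3.1, *MEP1* at 56.2 ± 2.5, *GDH3* at 53.4 ± 4.7 and *MEP2* at 14.7 ± 2.2 TPM. *GDH1* was above *GDH2* in all 3 of these libraries, and only *MEP1* and *GDH3* overlapped as neighbours.

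In *mrn1Δ* fermentative cultures the order was *GLN1* at 318 ± 2.5, *GLT1* at 173 ± 5.9, *GDH1* at 136 ± 6.4, *MEP3* at 64.4 ± 5.5, *GDH2* at 31.7 ± 1.0, *MEP1* at 24.8 ± 1.0, *GDH3* at 17.6 ± 1.4 and *MEP2* at 10.8 ± 0.82 TPM, with no overlap between neighbours. In WT fermentative cultures it was *GLN1* at 322 ± 57, *GDH1* at 262 ± 35, *GLT1* at 167 ± 33, *MEP3* at 57.9 ± 1.9, *GDH2* at 30 ± 2.9, *MEP1* at 22.5 ± 0.93, *GDH3* at 19.2 ± 1.8 and *MEP2* at 12.2 ± 1.3 TPM. *GLN1* and *GDH1* overlapped there and the other neighbours did not. *GDH1* and *GLT1* thus changed places between the genotypes.

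The balance between glutamate dehydrogenases that form and degrade glutamate was expressed as the TPM of *GDH2* over the sum of *GDH1* and *GDH3*. It was 1.11, 1.03 and 1.11 in *mrn1Δ* respiratory libraries, against 0.313, 0.302 and 0.340 in WT respiratory libraries, and the mean difference was 0.765. It was 0.207, 0.210 and 0.201 in *mrn1Δ* fermentative libraries, against 0.113, 0.0939 and 0.115 in WT fermentative libraries, a mean difference of 0.0988. Neither pair of groups overlapped, and *GDH2* exceeded the sum of *GDH1* and *GDH3* only in *mrn1Δ* respiratory cultures. *GLT1*, which also forms glutamate and stood at 106 TPM there, was not part of that sum. The share of *GDH3* in *GDH1* plus *GDH3* was 22.7%, 19.8% and 20.3% in *mrn1Δ* respiratory libraries, against 14.1%, 9.63% and 10.2% in WT respiratory libraries. In fermentative growth it was 12.8%, 10.5% and 11% in *mrn1Δ*, against 7.31%, 6.71% and 6.60% in WT. The shift raised the mean of this share by 9.43 percentage points in *mrn1Δ* and by 4.42 in WT. The share depends on *GDH1* as well, which was lower in *mrn1Δ*. The shift in *GDH3* itself was alike, 2.26-fold in *mrn1Δ* and 2.25-fold in WT.

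*MEP2* made up a small share of the permease transcripts. Of the summed TPM of the 3 MEP genes, *MEP2* held 9.02% ± 0.40 in *mrn1Δ* respiratory cultures, against 9.69% ± 1.3 in WT respiratory cultures (SD, n = 3 each), and the groups overlapped. In fermentative growth it held 10.8% ± 0.44 in *mrn1Δ*, against 13.2% ± 0.95 in WT, without overlap. For these measures 12 differences were tested with two-sided exact permutation tests of 3 against 3 libraries, which cannot go below p = 0.1. The exact permutation tests gave p = 0.1 (0.109 after Benjamini-Hochberg adjustment) in 11 cases and p = 0.4 (0.4) for *MEP2* in respiratory cultures, so none could pass a threshold of 0.05 in this design.

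**Figure D3:**
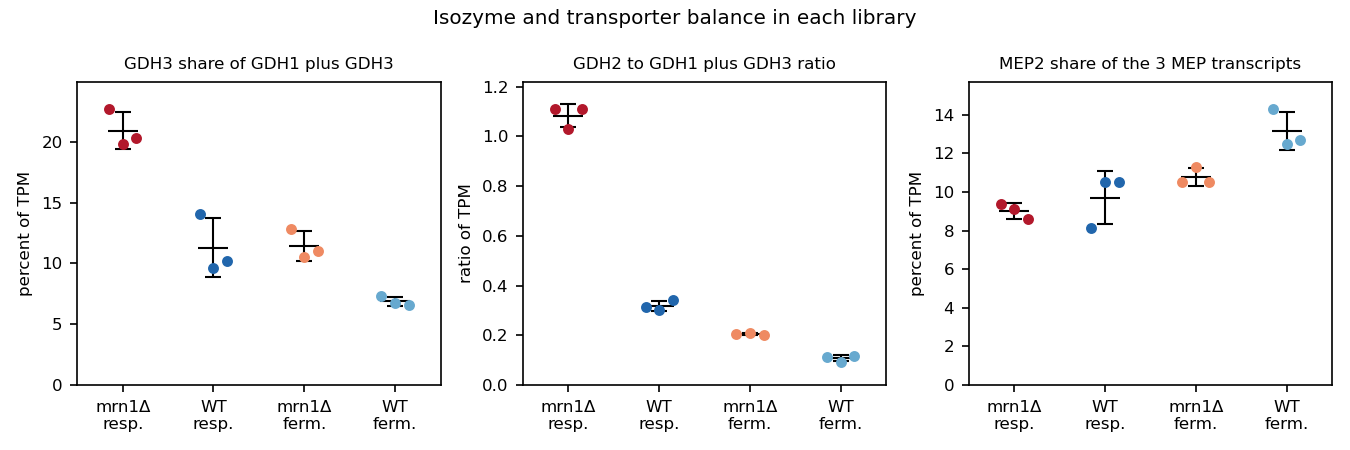
The share of *GDH3* in *GDH1* plus *GDH3* (percent of TPM), the ratio of *GDH2* to *GDH1* plus *GDH3* (ratio of TPM) and the share of *MEP2* in the 3 MEP transcripts (percent of TPM), on axes that start at 0. Points are single libraries of *mrn1Δ* respiratory, WT respiratory, *mrn1Δ* fermentative and WT fermentative cultures, and bars show the mean and SD of 3. The *GDH2* ratio is above 1 only in the *mrn1Δ* respiratory libraries (1.03 to 1.11).

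The lower *GDH1* in *mrn1Δ* stood beside lower levels of other Leu3 targets. In respiratory cultures 6 of 6 were lower in *mrn1Δ*, beside 7.83% of all genes, with a median log2 fold change of -1.55, where that of all genes was 0.00. In fermentative cultures 4 of 6 were lower, beside 0.328% of all genes, with a median of -0.95, where that of all genes was -0.02. *LEU1*, isopropylmalate isomerase of leucine synthesis, had 111, 121 and 121 CPM in *mrn1Δ* respiratory libraries, against 824, 999 and 918 CPM in WT ones, and 157, 158 and 163 CPM in *mrn1Δ* fermentative libraries, against 727, 841 and 787 CPM in WT ones. It was 7.76-fold lower in respiratory and 4.91-fold lower in fermentative cultures. *OAC1*, a mitochondrial oxaloacetate carrier, was 7.56-fold and 3.91-fold lower, and *BAT1*, the mitochondrial branched-chain aminotransferase that uses glutamate, 4.31-fold and 2.74-fold lower. After the shift, 6 of the 6 were lower in *mrn1Δ* and 3 of the 6 in WT, beside 40.3% and 36.4% of all genes tested. In the genotype comparisons the adjusted p-values of *LEU1*, *OAC1* and *BAT1* reached at most 2.1e-05 (edgeR quasi-likelihood test). A match to the repeat stands before each of these genes and *GDH1*, as shown above, and its effect on their levels was not tested.

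*ILV5*, which acts in valine and isoleucine synthesis, had log2 fold changes of -1.0 in respiratory and -0.44 in fermentative growth, with adjusted p-values of 0.013 and 0.048 (edgeR). *ILV2* (-0.79) and *LEU4* (-0.64) were called in respiratory growth, while in fermentative growth their values were -0.11 and -0.28 with adjusted p-values of 0.54 and 0.29 (edgeR). *LEU4*, the one of these genes with no repeat in its window, was thus also lower in *mrn1Δ* respiratory cultures. The transcript of *LEU3* itself had 39, 41.4 and 40.2 CPM in *mrn1Δ* respiratory libraries, against 39.6, 46 and 44.5 CPM in WT ones, and its log2 fold changes of -0.11 in respiratory and -0.03 in fermentative growth were not called. *LEU2*, deleted in BY4741 and looked at after the other values were seen, had 0 to 3 counts in each of the 12 libraries, so the strains did not differ in this marker. Whether Leu3 activity had a part in the level of *GDH1* was not tested.

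**Figure D4:**
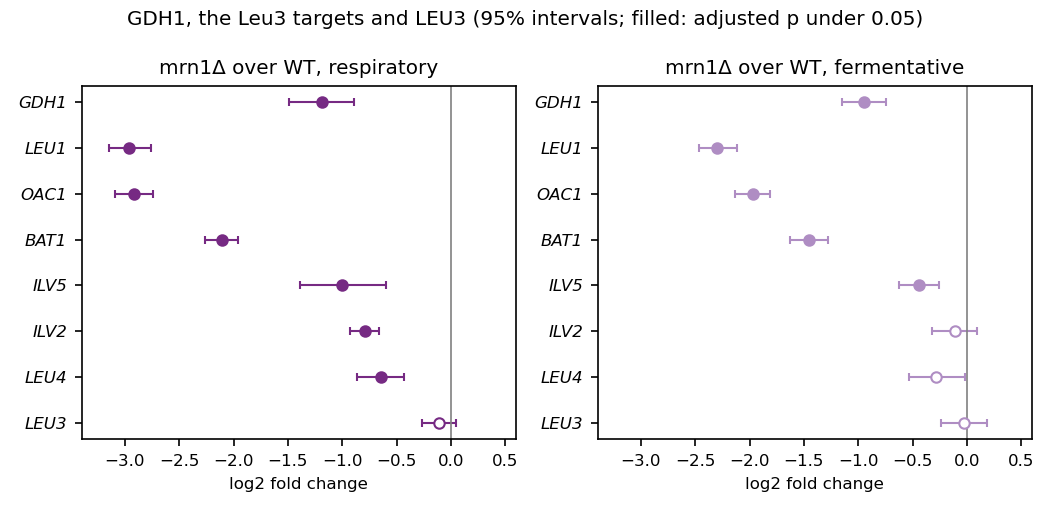
Log2 fold changes of *mrn1Δ* over WT in respiratory and in fermentative cultures for *GDH1*, 6 other Leu3 targets and *LEU3*, with 95% intervals from the edgeR fits. Filled points have an adjusted p under 0.05. *GDH1* (-1.19 and -0.95) lies among the targets, whose values run from -2.96 for *LEU1* to -0.11 for *ILV2*, and *LEU3* lies near 0.

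Other activators known to act on *GDH1* were not called between genotypes in either medium by edgeR. These are *GCN4*, the activator of amino acid synthesis genes, and the *HAP2*, *HAP3*, *HAP4* and *HAP5* subunits of the CCAAT-binding complex. At an unadjusted p under 0.05 by edgeR, 1 was lower in each medium. In fermentative cultures it was *HAP5* (-0.36, interval -0.71 to -0.02), and in respiratory cultures *HAP4* (-0.21, interval -0.41 to -0.01). Over all genes, 878 of 5785 and 1722 of 5800 passed that threshold in either direction. DESeq2 called 0 of these activators in both media. Of the 6 activators, counted with *LEU3*, 3 were higher after the shift in each strain, *HAP2*, *HAP4* and *HAP5*. In *mrn1Δ* 3 were lower and in WT 1, with *LEU3* among them in both strains. Over all genes 43.2% were higher and 40.3% lower in *mrn1Δ*, and 38.6% and 36.4% in WT. *LEU3* had log2 fold changes of -0.43 (adjusted p = 2.7e-05) in *mrn1Δ* and -0.33 (adjusted p = 0.018, edgeR) in WT. *HAP4*, the regulatory subunit, had log2 fold changes of 2.41 in *mrn1Δ* and 2.80 in WT, and *GCN4* of -0.59 (adjusted p = 3.3e-06) in *mrn1Δ* and -0.29 (adjusted p = 0.16, edgeR) in WT.

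*GDH2* stood beside part of the genes known for nitrogen catabolite repression. Of 18 targets outside the 8 genes, 5 were higher and 0 lower in respiratory *mrn1Δ* cultures against WT by edgeR, beside 6.79% and 7.83% of all genes, with a median of 0.10 where that of all genes was 0.00. DESeq2 called 7 higher and 0 lower, and 8 and 0 passed an unadjusted p under 0.05. Over all 5800 genes DESeq2 called 457 higher and 516 lower, and 1722 passed the unadjusted threshold in either direction by edgeR. In fermentative cultures 0 were called by edgeR (1 higher at an unadjusted p under 0.05, and 1 with DESeq2). There 878 of all 5785 genes passed the unadjusted threshold by edgeR, and DESeq2 called 151 higher and 54 lower. *PUT4*, the proline permease, had 302, 341 and 316 CPM in *mrn1Δ* respiratory libraries, against 148, 221 and 177 CPM in WT ones (log2 fold change 0.82 ± 0.14, adjusted p = 0.011, edgeR). *GAP1*, the general amino acid permease, had 125, 140 and 115 CPM, against 78.5, 99.9 and 90.6 CPM (0.50 ± 0.10, adjusted p = 0.012, edgeR), and arginase *CAR1* had a log2 fold change of 0.53. Most of these genes were higher after the shift: 15 of 18 in *mrn1Δ* and 14 of 18 in WT, beside 43.2% and 38.6% of all genes, led by *PUT4* with log2 fold changes of 5.40 and 4.52. The allantoin-pathway gene *DAL7* was lower, with log2 fold changes of -0.85 and -0.89, and *CPS1* was called lower in *mrn1Δ* (-0.20, adjusted p = 0.048, edgeR) and not in WT (-0.02). *MEP1* followed the direction of most of this list and *MEP2* and *MEP3* had smaller log2 fold changes, as given above.

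Of the transcripts of the GATA factors and their regulators, *GLN3*, *GAT1*, *DAL80*, *GZF3* and *URE2*, 0 of 5 were called by edgeR between genotypes in either medium. At an unadjusted p under 0.05 there was 1 lower gene, *GAT1*, in respiratory cultures, and DESeq2 called 0 in both media. Over all 5800 genes tested in respiratory cultures, 1722 passed the unadjusted threshold by edgeR. *GAT1* had a log2 fold change of -0.32 there (interval -0.61 to -0.03), and *DAL80*, at 0.174 to 1.4 CPM in the 12 libraries, one of -0.51 (interval -1.55 to 0.52). Among 3 genes linked to ammonium export, *ADY2* and *ATO2* were higher after the shift and *ATO3* was not called. Of all genes tested, 43.2% were higher in *mrn1Δ* and 38.6% in WT. *ADY2* had log2 fold changes of 6.12 in *mrn1Δ* and 5.57 in WT, *ATO2* of 4.64 and 4.14, and *ATO3* of -0.01 and 0.07. *ADY2* and *ATO2* were also higher in *mrn1Δ* than in WT respiratory cultures, beside 6.79% of all genes tested. *ADY2* had 260, 282 and 237 CPM in *mrn1Δ*, against 136, 180 and 157 CPM in WT (log2 fold change 0.72, adjusted p = 0.0039, edgeR), and *ATO2* had a log2 fold change of 0.44 (adjusted p = 0.020, edgeR). *NPR1*, the kinase known to keep Mep permeases active, was higher after the shift by 0.57 in *mrn1Δ* and 0.81 in WT. *PAR32*, the other listed regulator of ammonium transport, was called lower in WT (-0.26, adjusted p = 0.0089, edgeR) and not in *mrn1Δ* (-0.06).

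Enzymes that use glutamate or glutamine were also compared after the shift, when 43.2% of all genes tested were higher and 40.3% lower in *mrn1Δ*, and 38.6% and 36.4% in WT. All 3 genes of the GABA shunt, which breaks down glutamate by way of *GAD1*, *UGA1* and *UGA2*, were higher in both strains, with median log2 fold changes of 2.35 in *mrn1Δ* and 2.12 in WT, where those of all genes were 0.05 and 0.03. All 10 of the glutamine amidotransferases listed here, most of which pass the amide nitrogen to nucleotides and amino acids, were lower in both, with medians of -1.34 and -1.03. *GLT1*, an amidotransferase by mechanism, was lower as well. Of 8 aminotransferases that share glutamate as a substrate, 4 were higher and 4 lower in *mrn1Δ*, and 3 higher and 4 lower in WT. *ARO9* had log2 fold changes of 3.12 and 3.0, and *AAT1* of -1.21 and -1.21. Between genotypes in respiratory growth, 1 of 3 shunt genes was higher in *mrn1Δ* (*GAD1*, 0.27) and 4 of 10 amidotransferases were lower, among them *ADE4* (-0.31), *URA2* (-0.27) and *URA7* (-0.26). Of all 5800 genes tested in this comparison, 6.79% were higher and 7.83% lower. Of the 8 aminotransferases, 0 were higher by edgeR (2 at an unadjusted p under 0.05, and 1 with DESeq2) and 2 lower, *BAT1* and *AAT2* (-0.25). Over all genes 1722 passed the unadjusted threshold in either direction by edgeR, and DESeq2 called 457 higher.

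2-oxoglutarate, the carbon skeleton of glutamate, is supplied in part by isocitrate dehydrogenases. Of 6 genes for its supply and transport, 2 were higher and 0 lower in respiratory *mrn1Δ* cultures than in WT ones. Of all 5800 genes tested, 6.79% were higher and 7.83% lower. The 2 genes were *IDP2* and *IDP3*, each with a log2 fold change of 0.46 and adjusted p-values of 0.041 and 0.0011 (edgeR). In fermentative cultures 0 of 6 were called by edgeR, by DESeq2 or at an unadjusted p under 0.05. Of 4 regulators of the retrograde pathway, which sets 2-oxoglutarate production by mitochondria, *RTG2* alone was called in respiratory cultures (0.18), and of 7 targets *CIT1* alone (0.33). These single calls are to be read against the same shares over all genes. In fermentative cultures edgeR called 0 of the 7 targets, DESeq2 called 1 lower, and 5 were lower at an unadjusted p under 0.05, with a median log2 fold change of -0.20 where that of all genes was -0.02. Over all 5785 genes tested there, 878 passed the unadjusted threshold in either direction by edgeR, and DESeq2 called 54 lower.

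Across the 12 libraries *GDH2*, *GDH3*, *GLN1* and *MEP1* varied together, with pairwise Pearson r of log2(CPM + 1) from 0.93 to 0.97, and *GLT1* ran against them with r from -0.96 to -0.89. These values describe libraries that fall into 4 groups and share the contrast between media. *GDH1* and *MEP2* stood apart, with r between -0.40 and 0.37 to every other gene of the 8. Among 5178 genes with a mean of at least 10 CPM, those most like *GDH1* were *LEU1* (r = 0.9424) and the deleted gene *MRN1* (r = 0.9233), both low in *mrn1Δ*. The genes most like *GDH2* were *OSH6* and *AGX1* (both r = 0.9971), those most like *GDH3* were *SWC4* and *SEC20*, and those most like *GLN1* were *WSC3* and *HEF3*. *GLT1* had *ORC2* (r = 0.9974) and *PRP16*, and *MEP1* had *ESA1* and *PUN1*. The closest genes to *MEP2* were *IAH1* and *TRP1*, with r of 0.7788 and 0.7701, and those to *MEP3* were *AKR1* and *DPP1*, with 0.8695 and 0.8642, lower than for the other genes.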

How the data were processed

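The authors depleted ribosomal RNA, prepared NEBNext Ultra II libraries and sequenced single-end reads from 12 cultures. The submitters' processing notes name kallisto 0.44.0 and R64. The deposited values are estimated counts for each of 5917 coding sequences, not normalized between libraries, and the TPM values deposited by the authors beside them, scaled for length to the same sum in each library. The strand setting is not given in the sources used here. Of the identifiers, 5911 matched the R64 reference, and 99.9% of these had coding sequences of equal length.

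Counts were rounded (values were not whole for 623 identifiers) and tested with edgeR 4.0.16 in R 4.3.3: filterByExpr, TMM, robust quasi-likelihood F test, Benjamini-Hochberg adjustment, call at an adjusted p under 0.05. Each comparison used its own 6 libraries and the interaction all 12. Tests were tried on simulated data with 200 changed genes and the same spread set for every gene, unlike these libraries. No result given here rests on that trial. The 95% intervals use the F statistic. Promoter searches and figures used Python 3.11.15, biopython 1.88 and matplotlib 3.10.9.

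Alternatives were DESeq2 1.42.0, upper-quartile scaling, no filter beyond 1 count, a minimum of 10 counts in each library, a joint fit of all 12 libraries, a block for replicate number, and omission of single libraries. The labels do not say whether numbers pair cultures. Deviations from group means of same-numbered libraries of the 2 media correlated at 0.148 to 0.278 in *mrn1Δ* and 0.113 to 0.23 in WT, so a blocked fit by replicate number is given for these where it changes a call. The values printed for the comparisons of media otherwise come from the fit without a block. No 2 replicates were the same library (chi-square per degree of freedom at least 11.1).

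The genes and lists were chosen with earlier results of these data known. The text names the 8 genes, *MRN1*, genes of the regulator lists, up to 3 called genes in each direction of the other lists, and the 2 genes most like each of the 8. *ILV5*, *ILV2* and *LEU4* complete the list of Leu3 targets and, like *LEU2*, stand outside this rule where it did not name them.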

Additional observations from a re-analysis of the deposited data

Results flagged for a closer look

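The response to the shift differed between genotypes for *GDH2* and for 5 genes of the related lists, by the interaction test on all 12 libraries (edgeR quasi-likelihood test, 3 libraries in each of 4 groups). For *GDH2* the log2 fold change of the shift was larger in *mrn1Δ* than in WT by 0.67 (adjusted p = 0.011), and over 17 alternatives the difference ran from 0.57 to 0.76 with adjusted p-values up to 0.039. *GAP1* also had a larger shift in *mrn1Δ*, by 0.68 (adjusted p = 0.011). The difference was -0.66 for *LEU1* (adjusted p = 0.0092), -0.68 for *ILV2* (0.0077), -0.65 for *BAT1* (0.0077) and -0.95 for *OAC1* (0.00053), each a Leu3 target with a lower shift value in *mrn1Δ* than in WT. The causes were not tested.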

How the results depend on the processing

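*GDH1* remained lower in *mrn1Δ* under all 12 alternatives in both media, with log2 fold changes of -1.31 to -1.03 in respiratory (adjusted p up to 0.010) and -1.02 to -0.85 in fermentative growth (up to 0.015), and *GDH2* remained higher in respiratory *mrn1Δ* cultures (0.64 to 0.85, up to 0.011). The *GDH1* shift call in *mrn1Δ* was also lost with DESeq2 (adjusted p = 0.12) and with all 12 libraries in one edgeR fit (0.26). *MEP3* became called after the shift in *mrn1Δ* with upper-quartile scaling (0.17, adjusted p = 0.039) or without fermentative replicate 1 (0.21, 0.011), and in WT without fermentative replicate 1 (0.22, 0.020), by edgeR.

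Sign changes occurred in 37 of 520 repeated values of the 8 genes, each of them uncalled, with values between -0.14 and 0.12. With upper-quartile scaling *GLT1* in fermentative growth became 0.00, *MEP1* in respiratory growth -0.03 and the *MEP3* interaction 0.01. The *GLN1* interaction became -0.02 with DESeq2, -0.02 without a filter, -0.01 with at least 10 counts and 0 with the block. Leaving out single libraries gave -0.11 to 0.12 for *GLN1* and -0.07 to 0.17 for *GLT1* in fermentative growth. In respiratory growth it gave -0.08 to 0.05 for *GLN1*, -0.02 to 0.05 for *MEP1* and -0.14 to 0.04 for *MEP2*, and for the *MEP2* shift in WT -0.13 to 0.06. For the interactions it gave -0.07 to 0.10 (*GDH3*), -0.14 to 0.08 (*GLN1*), -0.24 to 0 (*GLT1*) and -0.08 to 0.04 (*MEP3*).

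Counts over all genes moved more. Between genotypes in fermentative growth, 34 genes were higher and 19 lower, against 151 and 54 with DESeq2, 132 and 60 with all 12 libraries, and 13 to 63 and 6 to 27 with a library left out (fewest without WT replicate 3, most higher without WT replicate 2, and also past 1.5 times without each *mrn1Δ* replicate). In respiratory growth 394 were higher and 454 lower, against 260 higher with upper-quartile scaling, 258 with all 12 libraries, and 152 to 445 and 165 to 473 with a library left out (moved past 1.5 times without each *mrn1Δ* replicate or WT replicate 3). The interaction had 65 and 123, against 116 and 323 with DESeq2, and 26 to 155 and 50 to 346 with a library left out (most without WT fermentative replicate 2, and fewer by over 1.5 times without WT fermentative replicate 3, *mrn1Δ* fermentative replicate 1 or 2, WT respiratory replicate 1 or 3, or any *mrn1Δ* respiratory replicate). The causes were not tested. The replicate number as a block gave 49 and 22 calls in fermentative growth, 470 and 500 in respiratory growth and 99 and 162 for the interaction. Between genotypes, deviations of same-numbered libraries correlated at 0.032 to 0.209 in fermentative and -0.188 to 0.162 in respiratory growth, so no pairing was assumed there, and the block changed no call on the 8 genes other than those on *MEP3* after the shift. The intervals printed beside the fold changes give the precision that 3 libraries a group allow, which differs by gene.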
